A study of Mus musculus with 10 samples.

Results

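The set described here holds 34 activity-regulated genes, transcripts that neurons make when they are stimulated. Members were listed by symbol and found in the deposited table through their Ensembl identifiers, which gave 34 of the 48526 gene identifiers in the table. For description they were divided into 23 early response genes, whose transcripts are generally known to appear first after a stimulus, and 11 late response genes (Fosl2, Nr4a2, Homer1, Nptx2, Inhba, Sorcs3, Rgs4, Ptgs2, Rheb, Bhlhe40 and Crem). This is a working division that was not measured here. Members were placed by how soon their transcripts are generally known to rise, and not by a need for new protein synthesis. The class of some late genes is open, and in an alternative division below Fosl2, Nr4a2, Homer1, Ptgs2, Bhlhe40 and Crem were counted as early. RNA came from the microdissected dentate gyrus of 10 C57Bl/6 mice aged 8 weeks. Each animal had received 1 µl of an adeno-associated virus of serotype 9 in the dentate gyrus of each side, carrying Sox11 in 5 mice and green fluorescent protein (GFP) in the 5 control mice, so both groups carried a virus and an injection. The promoter driving either transgene, the time from injection to dissection and the time of day of dissection are not stated in the labels. Libraries are called by the column numbers of the table, GFP 1, 3, 4, 5 and 6 and Sox11 1, 2, 3, 6 and 7, and values are listed in that order below. Levels are normalized counts, reads per gene divided by a factor for each library.

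Activity-regulated transcription begins when calcium enters a depolarized neuron and kinases of the calmodulin and MAP kinase pathways act on factors already bound to DNA, chiefly CREB and serum response factor. Early genes follow without new protein synthesis and mostly encode transcription factors, while late genes include synaptic, secreted and signalling proteins. In the dentate gyrus these transcripts are widely used to mark granule neurons that were recently active, and most granule neurons are silent at any time. Sox11, the factor supplied here, is a SoxC transcription factor of newborn neurons.

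The DNA upstream of these genes is shown first because factors that drive their transcription are known to bind near the start of a gene. RefSeq start sites (GRCm38.p6) were at hand for 26 of the 34 members, and the 250 bases before each start were searched on both strands. TGACG, the core of the cyclic AMP response element to which CREB binds, was present upstream of 17 of the 26 matched members (65.4%), 13 of 18 early and 4 of 8 late ones. Over all 27025 genes of the reference table it was present in 19.8%, and over the 12438 of them tested here in 28.6%. The full element TGACGTCA, which contains TGACG, was found for Dusp1 and Btg2 and for 2.88% of the tested genes. The CArG box of serum response factor was found for Egr2 and Dusp5 and for 1.42% of tested genes, and GCGGGGGCG, bound by Egr proteins, for Fosb, Fosl2 and Nr4a1 and for 5.47%. TGANTCA, bound by Fos and Jun dimers, was in none of the 26 and in 5.53% of tested genes. A match is a run of letters and not a measured binding site. Bases farther upstream were not searched, so a member without a match here may hold the motif there. Egr1, Egr3, Arc, Nptx2, Ier2, Bhlhe40, Klf10 and Crem had no entry. A gene with several starts was counted if any of them had a match. The upstream stretches of 5 members, all with TGACG, are given 5′ to 3′ on the strand of the gene, for 3 early transcription factors and 2 late genes. Matches to TGACG (or its reverse complement), the CArG box and GCGGGGGCG are in capitals. For Egr2 start 3 of 5 is shown and for Homer1 start 1 of 2, while Egr2 start 1 and Homer1 start 2 had no match.
Fos, chr12:85473640-85473889, plus strand: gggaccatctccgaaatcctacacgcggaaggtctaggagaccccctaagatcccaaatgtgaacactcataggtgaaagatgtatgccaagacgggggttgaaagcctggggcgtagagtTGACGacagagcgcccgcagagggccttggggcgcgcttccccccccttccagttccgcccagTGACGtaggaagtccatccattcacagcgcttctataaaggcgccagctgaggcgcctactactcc
Egr2, chr10:67537619-67537868, plus strand: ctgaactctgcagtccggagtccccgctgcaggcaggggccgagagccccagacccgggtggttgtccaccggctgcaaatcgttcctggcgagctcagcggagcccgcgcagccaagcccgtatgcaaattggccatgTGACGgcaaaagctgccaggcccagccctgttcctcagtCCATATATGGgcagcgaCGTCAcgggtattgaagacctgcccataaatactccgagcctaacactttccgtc
Nr4a1, chr15:101266596-101266845, plus strand: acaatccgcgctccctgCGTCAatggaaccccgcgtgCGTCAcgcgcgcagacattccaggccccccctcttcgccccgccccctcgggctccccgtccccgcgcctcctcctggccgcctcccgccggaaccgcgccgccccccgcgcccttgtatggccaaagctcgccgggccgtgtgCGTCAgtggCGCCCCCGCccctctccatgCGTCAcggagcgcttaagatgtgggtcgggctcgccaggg
Homer1, chr13:93303507-93303756, plus strand: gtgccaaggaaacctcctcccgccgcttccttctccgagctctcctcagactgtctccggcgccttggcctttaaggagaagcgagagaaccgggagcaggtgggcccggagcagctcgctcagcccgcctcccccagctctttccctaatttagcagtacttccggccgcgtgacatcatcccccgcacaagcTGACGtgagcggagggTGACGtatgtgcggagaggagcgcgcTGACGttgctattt
Rgs4, chr1:169747643-169747892, minus strand: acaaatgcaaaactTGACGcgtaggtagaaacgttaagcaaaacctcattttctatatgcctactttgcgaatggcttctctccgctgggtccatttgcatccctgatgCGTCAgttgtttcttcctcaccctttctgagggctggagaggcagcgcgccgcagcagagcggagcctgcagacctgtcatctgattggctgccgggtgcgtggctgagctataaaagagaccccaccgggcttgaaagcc
No annotated exon overlaps these stretches. Those of Egr2, Nr4a1 and Homer1 lie within the span of the gene, upstream of a start that is not its outermost one. In Egr2 the CArG box (bases 72 to 63 before the start) stands between a TGACG at 111 to 107 and another at 55 to 51. Fos has TGACG at 129 to 125 and at 66 to 62, Nr4a1 has 4 copies, Homer1 has 3 copies within the last 56 bases, and Rgs4 has 2, at 236 to 232 and 141 to 137.

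Before the members, the libraries themselves were compared. Recovered depth ran from 45100154 to 68769808 reads per library. Sox11 itself, which checks the labels, lay between 1364 and 1634 normalized counts in GFP libraries and between 9803 and 20434 in Sox11 libraries (log2 fold change 3.08, limma adjusted p = 9.18e-06, two-sided exact permutation p = 0.00794, the smallest that 5 against 5 can give). Sox11 3 had the highest value, and reads of the viral and the mouse copy are not told apart. GFP 3 stood apart by choroid plexus markers, whose sum was 380628 normalized counts against 710 to 3259 in the 9 other libraries, so counts of members are given without GFP 3 and without Sox11 3 as well. Prox1 and Calb1, which mark granule neurons, had means of 15854 and 13723 normalized counts in the GFP group, and no marker of the 11 marker lists that was found was at 0 in all libraries. Of the marker genes tested, 4 of 10 astrocyte, 3 of 10 microglia and 2 of 5 leukocyte genes rose, 2 of 12 granule neuron genes rose and 3 fell, and 4 of 12 interneuron, 3 of 8 mossy cell and 4 of 7 heat shock genes fell. Over all 17007 genes tested 9.65% rose and 9.36% fell. None of the 13 CA1 and CA3 pyramidal, 8 oligodendrocyte, 8 endothelial and 8 choroid plexus genes passed the threshold.

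All 34 members passed the filter on low values, and 10 of them changed in the Sox11 libraries. Egr2, Ier2 and Egr3 among the early genes and Crem among the late genes rose, while the early genes Klf10 and Ier5 and the late genes Rgs4, Bhlhe40, Homer1 and Ptgs2 fell. Changes are log2 fold changes of Sox11 minus GFP on the scale log2(normalized count + 1), tested with limma over 17007 genes with Benjamini-Hochberg adjustment and a threshold of 0.05. The 4 that rose are 11.8% of the members, beside 9.65% of all genes tested, and the 6 that fell are 17.6%, beside 9.36%. The median log2 fold change was 0.09 over the members and -0.0063 over all genes tested. Groups stood fully apart for 1 member that was higher (Crem) and 3 that were lower (Rgs4, Bhlhe40 and Klf10) in Sox11 libraries, beside 8.63% and 7.29% of all genes. Without GFP 3, 5 members rose and 6 fell, beside 9.23% and 9.99% of all genes. Without Sox11 3, 3 rose and 4 fell, beside 7.53% and 7.19%. Without any 1 of GFP 1, GFP 4, Sox11 1, Sox11 2 or Sox11 6, Crem was the 1 member that rose, and 2 rose without GFP 5 or GFP 6 (Egr3 and Crem). Without Sox11 7, 4 rose. In these 8 fits (GFP 1, 4, 5 and 6, then Sox11 1, 2, 6 and 7 left out, in that order) 8.08%, 7.71%, 8.43%, 8.33%, 8%, 8.53%, 8.14% and 8.03% of all genes rose. In the same fits 4 to 6 members fell, beside 8.46%, 6.91%, 7.02%, 7.17%, 7.3%, 7.23%, 8.65% and 8.72% of all genes. In tissue RNA, fewer cells of a type and less RNA per cell cannot be told apart.

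**Figure D1:**
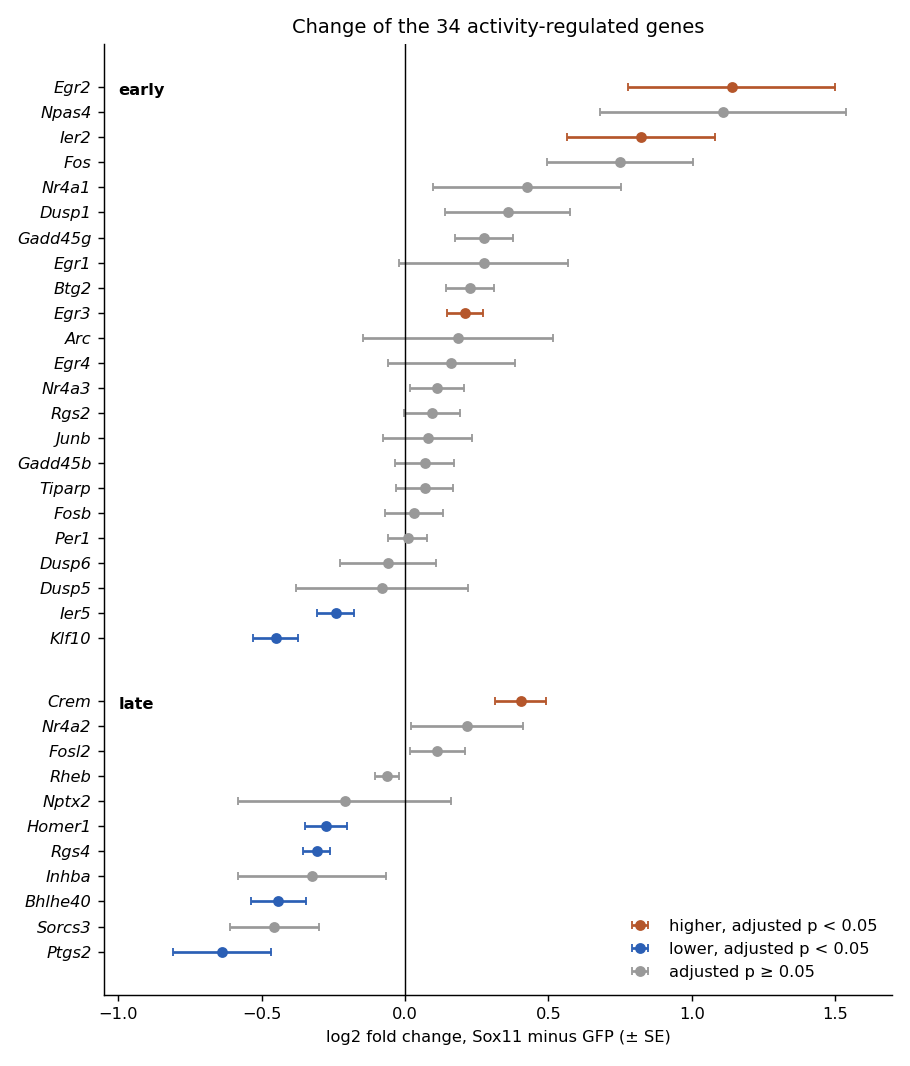
Log2 fold change (Sox11 minus GFP, horizontal axis) of each of the 34 members with its standard error, early genes above and late genes below, sorted by size. Orange points passed an adjusted p of 0.05 upward (4 genes), blue points downward (6 genes) and grey points did not pass (24 genes); the widest bars belong to Npas4, Nptx2 and Egr2.

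By class, 3 of the 23 early genes rose (13.0%) and 2 fell (8.7%), both shares near those of all genes tested (9.65% and 9.36%), with a median log2 fold change of 0.16. No early gene rose without GFP 1, GFP 4, Sox11 1, Sox11 2 or Sox11 6. Of the 11 late genes, 1 rose (9.1%) and 4 fell (36.4%), with a median of -0.28. Point estimates were above 0 for 19 of the 23 early genes and below 0 for 8 of the 11 late genes. Both medians moved with single libraries. The late one was -0.08 without Sox11 3, where 1 late gene rose and 3 fell, and 2 late genes fell without Sox11 2 or Sox11 6. The early one was 0.08 without Sox11 2, 0.09 without GFP 5 and 0.10 without Sox11 1. Without GFP 3 the medians were 0.18 (early) and -0.24 (late). When Fosl2, Nr4a2, Homer1, Ptgs2, Bhlhe40 and Crem were counted as early instead, 5 of 29 early genes and 1 of the 5 remaining late genes fell. Homer1, Ptgs2 and Bhlhe40 are among the late genes that fell, so the late share depended on the division. Members share the same 10 mice, so these medians describe the set and carry no test.

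Fos proteins pair with Jun proteins to form the AP-1 transcription factor. Fos is a widely used mark of a recently active neuron. Libraries of the GFP group held 310.2, 518, 224, 208 and 281 normalized counts of Fos, and those of the Sox11 group held 604, 685, 415, 460.3 and 363. All 5 Sox11 values lay above the GFP median of 281, 2 of them above GFP 3, the highest GFP library. The log2 fold change of 0.75 (SE 0.26) missed the threshold (adjusted p = 0.0662). It passed when GFP 3 was left out (adjusted p = 0.00707), under quantile normalization (0.0291), DESeq2 (0.0312) and limma-voom (0.0497). It passed as well with the column-number division (1 to 3 against 4 to 7, chosen with earlier results known) as a covariate (0.0315). It did not pass with edgeR (0.0790), TMM (0.0645), no filter (0.117), a filter at 50 (0.0585) or limma without trend and robust (0.0832). Neither other pseudocount passed, nor did any fit that left out a library other than GFP 3 (0.0553 to 0.145).

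None of the other Fos and Jun members passed the threshold either. Fosb, whose gene also gives the stable short protein ΔFosB, stood at 226, 308, 269, 267 and 319 normalized counts in GFP and 307, 283, 287, 264 and 269 in Sox11 libraries, with the Sox11 values inside the GFP range (log2 fold change 0.03, SE 0.10, adjusted p = 0.887). Counts per gene do not separate its isoforms. Junb, a Jun protein, stood at 1968, 2139, 1732, 1568 and 2016 normalized counts in GFP and 2509.9, 2417, 2019, 1769 and 1399 in Sox11 libraries, and its Sox11 values reached beyond the GFP range on either side (0.08, SE 0.16, adjusted p = 0.799). Of its exonic bases 7.5% are shared with an opposite-strand gene, Prdx2, and the labels do not state how the counting treated strand. Fosl2, a Fos relative of the late class, had means of 2607 ± 411 against 2797 ± 212 normalized counts (± SD, n = 5 each; 2284 to 3262 in GFP and 2541 to 3082 in Sox11 libraries; log2 fold change 0.11, adjusted p = 0.484).

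The 4 Egr genes encode zinc finger transcription factors that bind GC-rich sites, and Egr2 and Egr3 rose. Egr2 was the least abundant member per kilobase of exon (13.9 normalized counts in the GFP group). It stood at 39.6, 79.5, 51.7, 19.3 and 46.7 normalized counts in GFP and 149, 114, 51.7, 102 and 91.0 in Sox11 libraries. Sox11 values exceeded every GFP value in 4 of the 5 libraries, and Sox11 3 lay among the GFP values. Its log2 fold change of 1.14 (SE 0.36, adjusted p = 0.0492) was the largest of the set and stood next to the threshold. The call held without GFP 3 or without Sox11 3 and was lost when any 1 of the 8 other libraries was left out (adjusted p 0.0748 to 0.107). It was also lost with edgeR (0.0502), limma-voom (0.0546), no filter (0.0703), limma without the trend and robust options (0.0666) and the column-number covariate (0.0591). Its gene lies on chromosome 10, 67535475 to 67542188 (GRCm38).

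Egr3 stood at 2084, 2038, 2205, 2502 and 2413 normalized counts in GFP and 2723, 2594, 2652, 2585 and 2408 in Sox11 libraries. Again 4 of the 5 Sox11 values exceeded all GFP values, here with Sox11 7 as the exception. Its means were 2248 ± 203 against 2592 ± 117 (± SD, n = 5 each; log2 fold change 0.21, SE 0.063, adjusted p = 0.0388; chromosome 14, 70077203 to 70082614). This call held in 3 of the 10 fits that left out a library (without GFP 5, GFP 6 or Sox11 7) and was lost without a filter (0.0621) and without the trend and robust options (0.0605).

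Egr1 and Egr4 did not pass the threshold. Egr1, also known as Zif268, stood at 3058, 4341, 3433, 1689.6 and 2410.3 normalized counts in GFP and 5354, 4349.7, 2574, 3412 and 2351 in Sox11 libraries. The groups overlapped over most of their range, with Sox11 1 and GFP 5 at the ends (0.27, SE 0.30, adjusted p = 0.596). Egr4 stood at 706, 744, 555, 580.5 and 785 normalized counts in GFP and 1035, 958, 842, 640.5 and 435 in Sox11 libraries, the Sox11 values spanning more than the whole GFP range (0.16, SE 0.22, adjusted p = 0.694).

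Npas4 encodes a transcription factor that responds to calcium entry and acts on inhibitory synapses. It stood at 113, 305, 112, 44.7 and 190.0 normalized counts in GFP and 314, 329, 250.2, 308 and 199 in Sox11 libraries. The 5 Sox11 values lay close together and above the GFP median, while the GFP values spread from 44.7 to 305, with GFP 3 at the top. The coefficient of variation was 65.0% in GFP and 19.4% in Sox11 libraries. The log2 fold change was 1.11 (SE 0.43, adjusted p = 0.104), and it passed only when GFP 3 was left out (adjusted p = 0.0211) of the alternatives run.

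The 3 Nr4a genes encode orphan nuclear receptors, and none passed the threshold. Nr4a1 stood at 1310.4, 1936, 1257, 663 and 975 normalized counts in GFP and 2429, 2157, 1157, 1507 and 986 in Sox11 libraries, with Sox11 1 highest and GFP 5 lowest (0.43, SE 0.33, adjusted p = 0.427). Nr4a2 ranged over 988 to 1500.2 in GFP and 1135 to 2419.7 in Sox11 libraries, with means of 1358 ± 214 against 1612 ± 496 normalized counts (GFP against Sox11, ± SD, n = 5 each; adjusted p = 0.515). Nr4a3 ranged over 4985 to 6585 in GFP and 5751 to 7610.3 in Sox11 libraries and had means of 5926 ± 683 against 6399 ± 737 (adjusted p = 0.466). Both pairs of ranges overlapped. Per kilobase of exon Nr4a3 was the more abundant, at 989.8 normalized counts in the GFP group against 350.0 for Nr4a1 and 334 for Nr4a2.

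**Figure D2:**
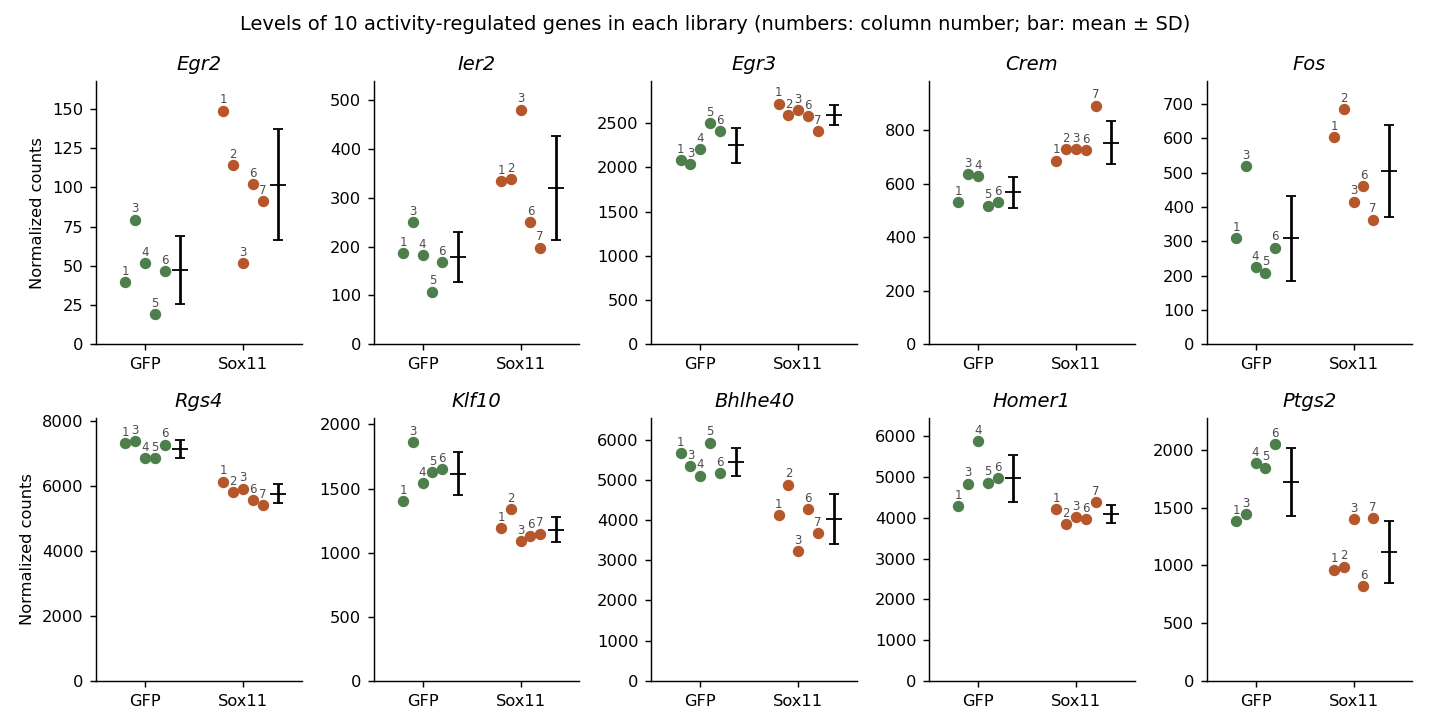
Normalized counts (vertical axis, from 0) of 10 members in each library, GFP in green and Sox11 in orange, with the column number at each point and the mean ± SD (n = 5) as a bar. Crem, Rgs4, Klf10 and Bhlhe40 show groups that do not overlap, whereas the groups of the other 6 genes overlap.

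Crem and Klf10 are transcription regulators whose groups separated fully. Crem encodes the cyclic AMP response element modulator, and its inducible short form ICER is a repressor of CREB targets. It rose, from 531, 636, 627, 517 and 529.6 normalized counts in the GFP libraries to 686, 729.6, 728, 726 and 891 in the Sox11 libraries, and the lowest Sox11 value lay above the highest GFP value (0.40, SE 0.088, adjusted p = 0.00870). Reads of ICER and of the long forms are counted together, and 8.0% of the exonic bases lie opposite another gene. Klf10, a Krüppel-like zinc finger factor induced early by TGF-β and by activity, fell from 1403, 1861, 1543, 1626 and 1653 normalized counts in GFP to 1189, 1340.0, 1091, 1134 and 1148 in Sox11 libraries with no overlap (-0.45, SE 0.078, adjusted p = 0.00244; chromosome 15, 38291463 to 38300706). Both calls held in all 10 fits that left out a library.

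Bhlhe40 and Per1 link activity to the circadian clock. Bhlhe40, a repressor also called Dec1, fell from 5663, 5339, 5103, 5926 and 5165 normalized counts in GFP to 4118, 4881, 3231, 4270.3 and 3674 in Sox11 libraries. Sox11 3 was the lowest and no values overlapped (-0.44, SE 0.10, adjusted p = 0.00868; chromosome 6, 108660629 to 108666925), and the call held in all 10 fits that left out a library. Per1, a clock repressor that is induced by CREB, had means of 3691 ± 146 against 3727 ± 395 normalized counts, values of 3544 to 3896 in GFP and 3219 to 4217 in Sox11 libraries and an adjusted p of 0.959. Its interval in log2 units was narrow, with an SE of 0.069 around 0.0083. Among clock genes outside the set, Per2 (-0.55, adjusted p = 0.000156), Per3 (-0.45, 0.000529) and Bhlhe41 (-0.51, 0.0122) fell. Whether Per1 differed from them in its change was not tested.

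Arc and Homer1 act at the excitatory synapse. Arc, which drives removal of AMPA receptors from the membrane, was among the most abundant members per kilobase (1233 normalized counts per kilobase in the GFP group, behind only Rgs4). It stood at 3357, 6106, 4217, 2179.6 and 2988 normalized counts in GFP and 6371, 5503, 2449.6, 4195 and 2958 in Sox11 libraries. The groups overlapped along nearly their whole range, GFP 3 and Sox11 1 being high and GFP 5 and Sox11 3 low (0.18, SE 0.33, adjusted p = 0.779).

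Homer1, a scaffold that ties metabotropic glutamate receptors to intracellular calcium stores, fell. Its values were 4292, 4843, 5879, 4867 and 4979 normalized counts in GFP and 4218, 3846, 4029, 3973 and 4392 in Sox11 libraries. Sox11 7 alone reached above the lowest GFP library, GFP 1 (-0.28, SE 0.074, adjusted p = 0.0235; chromosome 13, 93299635 to 93405129). Without Sox11 2, Sox11 3 or Sox11 6 the adjusted p was 0.0563, 0.0515 and 0.0511. The activity-induced short form Homer1a and the constitutive long forms are summed in these counts, so the fall cannot be assigned to either.

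Of the secreted and receptor-like late genes none passed the threshold. Nptx2, a pentraxin that clusters AMPA receptors, had means of 894 ± 310.1 against 837 ± 536 normalized counts, with 1770 in Sox11 1 against 485 to 797 in the 4 other Sox11 libraries (adjusted p = 0.773). Inhba, the activin A subunit, had means of 109 ± 21.8 against 90.7 ± 29.8 and its lowest value, 42.6, in Sox11 3 (84.1 to 135 in GFP and 42.6 to 125 in Sox11 libraries; -0.32, adjusted p = 0.441). Sorcs3, a sorting receptor found at postsynaptic sites, stood at 1501, 1419, 1476, 1128 and 1576 normalized counts in GFP and 1411, 1174, 973, 955 and 746 in Sox11 libraries, and all Sox11 values lay below the GFP median. Its log2 fold change of -0.46 (SE 0.16, adjusted p = 0.0666) passed without GFP 5 (0.0438) or Sox11 1 (0.0168), under quantile normalization (0.0482), DESeq2 (0.0313) and the column-number covariate (0.0227). It did not pass with edgeR (0.0841), limma-voom (0.0748), TMM (0.0732), no filter (0.105) or limma without trend and robust (0.0876). The other fits that left out a library gave 0.0718 to 0.135. Rheb, the GTPase that activates mTOR, had means of 5204 ± 186 against 4982 ± 214 normalized counts (4973 to 5417 in GFP and 4713 to 5279.7 in Sox11 libraries; -0.06, SE 0.043, adjusted p = 0.358).

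Signalling enzymes and their inhibitors held 2 of the late genes that fell. Rgs4 shortens signalling by G proteins and was the most abundant member per kilobase (2299 normalized counts in the GFP group). It fell from 7306, 7376, 6835, 6838 and 7257 normalized counts in GFP to 6124, 5797, 5905, 5552 and 5392 in Sox11 libraries. The gap between the groups was wide compared with the spread within each, and the adjusted p was the lowest of the set (-0.31, SE 0.046, adjusted p = 0.00104; chromosome 1, 169741477 to 169747642). The call held in each fit that left out a library. Its relative Rgs2, an early gene, had means of 1799 ± 268 against 1912 ± 177 normalized counts (1587 to 2267 in GFP and 1629.8 to 2069.6 in Sox11 libraries; 0.09, adjusted p = 0.571).

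Ptgs2, the inducible cyclooxygenase that makes prostaglandin precursors, fell by the largest fold among the 6. It stood at 1384, 1443, 1888, 1846 and 2048 normalized counts in GFP and 964, 989.6, 1402, 823 and 1409 in Sox11 libraries. Sox11 1, 2 and 6 lay below every GFP library, while Sox11 3 and Sox11 7 lay between GFP 1 and GFP 3 (-0.64, SE 0.17, adjusted p = 0.0255; chromosome 1, 150100031 to 150108227). The call held in 4 of the 10 fits that left out a library, and the adjusted p was 0.0510 to 0.0626 in the 6 others.

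The 3 dual-specificity phosphatases in the set switch off MAP kinases, and none passed. Dusp1, a nuclear phosphatase, had means of 522 ± 160.1 against 656 ± 134 normalized counts (GFP against Sox11, ± SD, n = 5 each; 322 to 744 in GFP and 500.5 to 775 in Sox11 libraries; 0.36, adjusted p = 0.30), and each Sox11 value lay above the GFP median. Dusp5, which acts on ERK in the nucleus, had means of 540.3 ± 213 against 504 ± 172 (348 to 784 in GFP and 316 to 726 in Sox11 libraries; -0.08, adjusted p = 0.901). Dusp6, its cytoplasmic relative, had means of 1929 ± 483 against 1824 ± 284 (1469 to 2492 in GFP and 1519.8 to 2185 in Sox11 libraries; -0.06, adjusted p = 0.866). The ranges of the groups overlapped for all 3. In Dusp5, 22.1% of the exonic bases lie opposite another annotated gene, AC137853.2.

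Ier2 and Ier5 are immediate early genes of the same family, and they moved in opposite directions. Ier2 stood at 187, 249.9, 183, 108 and 168 normalized counts in GFP and 335, 337, 481, 251 and 198 in Sox11 libraries, and 4 of the 5 Sox11 values exceeded all GFP values (0.82, SE 0.26, adjusted p = 0.0475; chromosome 8, 84661331 to 84662852). The call held without GFP 3 or Sox11 7 and was lost in the 8 other fits that left out a library (adjusted p 0.0570 to 0.0968). Ier5 stood at 2226, 2210.3, 1939, 2185 and 2003 normalized counts in GFP and 2016, 1806, 1692, 1778 and 1644 in Sox11 libraries, with only Sox11 1 inside the GFP range (-0.24, SE 0.063, adjusted p = 0.0208; chromosome 1, 155096361 to 155099636). It lost the call only without Sox11 3 (0.0518) among the fits that left out a library.

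None of the growth arrest and stress genes of the early class passed the threshold. Gadd45g, a stress sensor of the Gadd45 family, stood at 924, 833, 683, 743 and 932 normalized counts in GFP and 1036, 1034, 1093, 979 and 824 in Sox11 libraries. Its Sox11 values exceeded all GFP values in 4 libraries (0.28, SE 0.10, adjusted p = 0.0840). The adjusted p was 0.0342 without Sox11 7 and 0.0620 to 0.181 in the other fits that left out a library. Btg2, an antiproliferative cofactor, stood at 1357, 1427, 1131, 1459 and 1331 normalized counts in GFP and 1602, 1467, 1366, 1706 and 1703 in Sox11 libraries (0.23, SE 0.083, adjusted p = 0.0812). Its adjusted p was 0.0439 without Sox11 3 and 0.0711 to 0.166 in the other fits that left out a library. Gadd45b, which takes part in active DNA demethylation after activity, had means of 556 ± 59.5 against 584 ± 76.2 (493 to 630.1 in GFP and 491 to 674 in Sox11 libraries; adjusted p = 0.721). Tiparp, an ADP-ribosyltransferase, stood at 1081, 1416, 1257, 1111 and 1101 normalized counts in GFP and 1169, 1205, 1062, 1443 and 1380.1 in Sox11 libraries, with overlapping groups (0.07, SE 0.10, adjusted p = 0.710).

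Some members varied far more than others between mice of the same group. In the GFP group the coefficient of variation was 65.0% for Npas4, 46.0% for Egr2, 40.3% for Fos, 39.7% for Arc, 39.4% for Dusp5 and 38.5% for Nr4a1. It was 3.58% for Rheb, 3.71% for Rgs4 and 3.95% for Per1. The genes named here with a wide spread are early ones, but so are 23 of the 34 members, and the late gene Nptx2 stood at 34.7%. In the Sox11 group Nptx2 had the widest spread (64.1%), followed by the early genes Arc (38.6%) and Nr4a1 (38.0%), while Npas4 stood at 19.4%. The same libraries were at the ends for many early genes. Within the GFP group GFP 3 was the highest library for 14 of the 23 early genes and GFP 5 the lowest for 13. Within the Sox11 group Sox11 1 was highest for 12 and Sox11 7 lowest for 14. Of the 11 late genes, GFP 3 was highest for 3, GFP 5 lowest for 3, Sox11 1 highest for 4 and Sox11 7 lowest for 3. The same counts over all genes were not made, so the pattern is not shown to be particular to early genes.

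**Figure D3:**
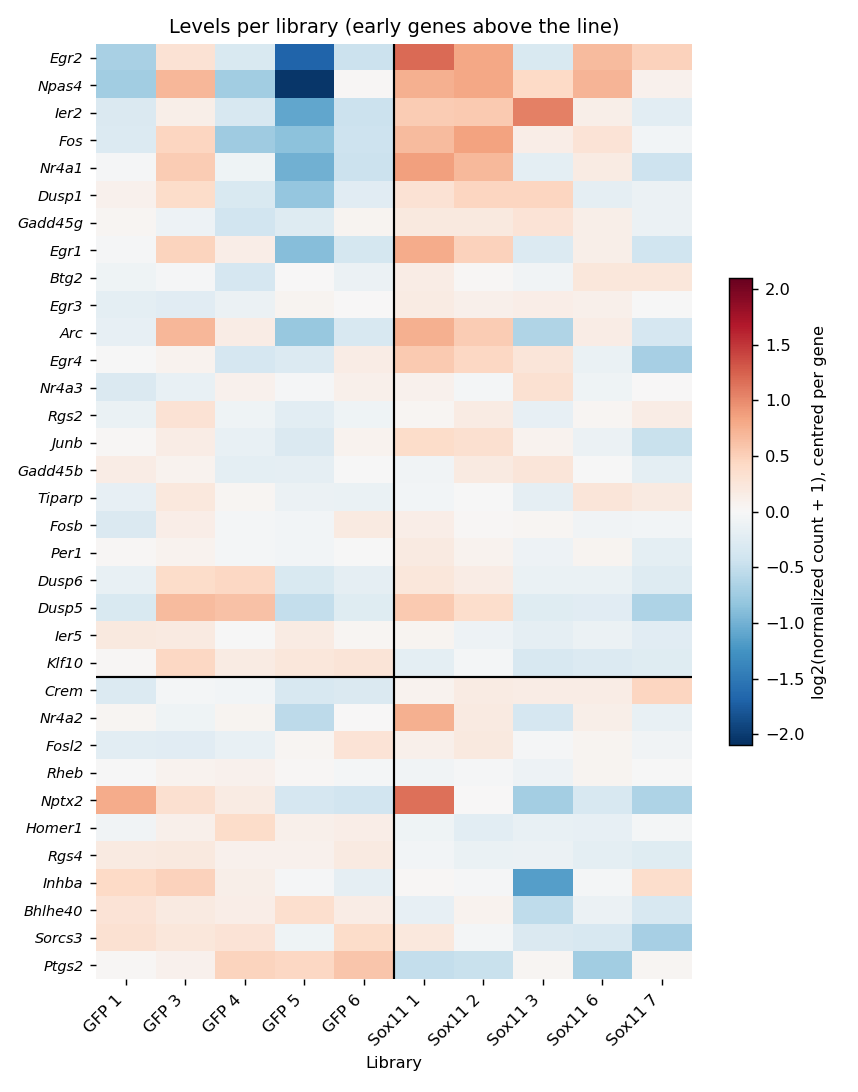
Level of each member (rows) in each library (columns) as log2(normalized count + 1) minus the gene's mean over the 10 libraries, early genes above late genes. GFP 5 and Sox11 7 are low and GFP 3 and Sox11 1 high for many early transcription factors, while Rgs4, Bhlhe40 and Homer1 are mostly low in the Sox11 columns.

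To give 1 value per class and library, the centred log2 level was averaged over the genes of each class. The early value was -0.15, 0.25, -0.12, -0.48 and -0.12 in the GFP libraries and 0.36, 0.31, 0.02, 0.07 and -0.16 in the Sox11 libraries. The groups overlapped: Sox11 7 lay below every GFP library but GFP 5, and GFP 3 lay above 3 Sox11 libraries. The late value was 0.13, 0.12, 0.15, -0.03 and 0.08 in the GFP libraries and 0.13, -0.03, -0.30, -0.14 and -0.12 in the Sox11 libraries. Here Sox11 1 reached the GFP level and GFP 5 the Sox11 level. Early minus late was -0.28, 0.13, -0.26, -0.46 and -0.19 in GFP and 0.23, 0.33, 0.32, 0.21 and -0.04 in Sox11 libraries, with GFP 3 above Sox11 7 as the overlap. Centring on the mean of the 10 libraries makes the 2 group averages mirror each other, at -0.21 ± 0.21 in GFP and 0.21 ± 0.15 in Sox11 libraries (mean ± SD, n = 5 each). With the 6 late genes named above counted as early, the difference ran from -0.46 to -0.051 in GFP and from 0.034 to 0.47 in Sox11 libraries, with no overlap. With 8 early genes left out (Dusp5, Dusp6, Gadd45b, Gadd45g, Rgs2, Per1, Klf10 and Tiparp), it ran from -0.61 to 0.13 and from -0.027 to 0.42, with overlap. Of these, Klf10, Dusp5 and Dusp6 had log2 fold changes below 0 (-0.45, -0.08 and -0.06) and the others above 0. The group averages were then -0.28 in GFP and 0.28 in Sox11 libraries.

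**Figure D4:**
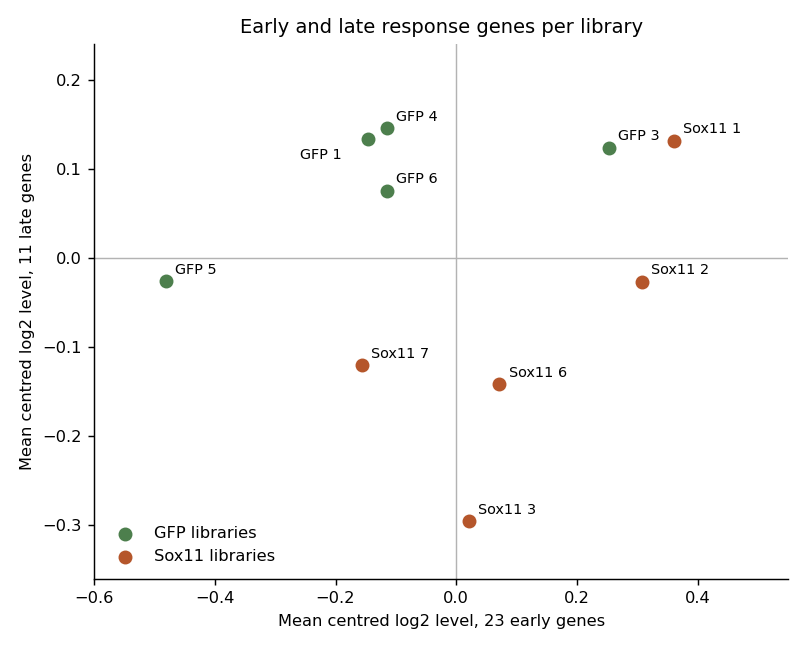
Mean centred log2 level of the 23 early genes (horizontal axis) against that of the 11 late genes (vertical axis), 1 point per library, GFP in green and Sox11 in orange. Sox11 libraries lie toward the lower right and GFP libraries toward the upper left, with GFP 3, GFP 5, Sox11 1 and Sox11 7 between or across.

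Marker sums of other cell types are given beside these values. Summed CA1 and CA3 pyramidal markers were 44511, 52873, 59848, 42172 and 48506 in GFP and 53860.0, 57249, 47515, 44288 and 45211 in Sox11 libraries. In the GFP group they were high in GFP 3 and GFP 4 and low in GFP 5, and in the Sox11 group high in Sox11 1 and Sox11 2. Granule neuron markers summed to 88125, 81595, 86082, 111823 and 90555 in GFP and 84037, 83714, 83979, 115677 and 114058 in Sox11 libraries, highest in GFP 5, Sox11 6 and Sox11 7. Heat shock genes summed to 73587 to 77817 normalized counts in GFP and 59137 to 69127 in Sox11 libraries, and interneuron markers to 52787 to 61853 and 39889 to 52447, so both were lower in Sox11 libraries with no overlap. The part of these in the results on early and late genes was not tested.

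The column numbers were divided into 1 to 3 and 4 to 7, which the labels do not describe. This division was chosen with earlier results of these data known. With it as a covariate 4048 genes were called, beside 3234 in the main test, so a pass with the covariate is not separate support. Within columns 1 to 3 (2 GFP, 3 Sox11 libraries) Egr3 rose (0.37, adjusted p = 0.0253) and Rgs4 fell (-0.31, 0.0278), beside 3.46% and 2.49% of all genes. Within columns 4 to 7 (3 GFP, 2 Sox11 libraries) 4 members rose (Fos, Btg2, Tiparp and Crem) and 5 fell (Homer1, Sorcs3, Rgs4, Bhlhe40 and Klf10), beside 7.27% and 7.91% of all genes. Rgs4 was the 1 member called in both. Fos had log2 fold changes of 0.47 and 0.79 in the divisions, Egr2 0.76 and 1.39, Egr3 0.37 and 0.07, Ier2 0.81 and 0.58, and Crem 0.30 and 0.53. The 10 called members kept their direction in each division, which holds part of the libraries that gave the calls.

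The pathway around the members was described with 3 further lists. Of 42 other activity-induced genes, 4 rose (9.5%, beside 9.65% of all genes tested) and 6 fell (14.3%, beside 9.36%), with a median log2 fold change of -0.04. Without GFP 5, GFP 6, Sox11 1, Sox11 2 or Sox11 3, 2 rose. Those that rose were Arl5b, a small GTPase (0.80, adjusted p = 0.000710), the transcription repressor Nfil3 (0.35, 0.0218), the salt-inducible kinase Sik1 (0.59, 0.0281) and Spry2, an inhibitor of receptor tyrosine kinase signalling (0.19, 0.0377). Among those that fell were Fbxo33, an F-box protein gene (-0.32, 0.000592), the MAP kinase phosphatase Dusp14 (-0.51, 0.00444), the Krüppel-like factor Klf9 (-0.27, 0.0136) and the neurite growth factor Nrn1 (-0.33, 0.0198). Arl5b stood at 1723, 2028, 2289.8, 1895 and 1791 normalized counts in GFP and 3082, 2868, 3199, 3633 and 4279 in Sox11 libraries, with no overlap.

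Of 48 genes that carry calcium and MAP kinase signals to the nucleus, 1 rose (2.1%, beside 9.65% of all genes tested) and 11 fell (22.9%, beside 9.36%), with a median log2 fold change of -0.11. Without Sox11 3, 6 fell, beside 7.19% of all genes, without Sox11 2, 7 fell, beside 7.23%, and without GFP 3, 14, beside 9.99%. Camk1g, a calmodulin kinase I gene, rose (0.54, adjusted p = 0.0135). Lowest in p among those that fell were its relative Camk1d (-0.67, 0.000129), the MAP kinase kinase Map2k1 (-0.61, 0.000571), Camkk1, which activates calmodulin kinases I and IV (-0.45, 0.00158), and the calcineurin regulatory subunit Ppp3r1 (-0.50, 0.00331). Camk1d stood at 16808, 19867, 22732, 19852 and 20342 normalized counts in GFP and 12095, 12705, 12859, 11849 and 12801 in Sox11 libraries, and the groups lay far apart. The factors that these kinases act on, Creb1 (0.03, adjusted p = 0.893) and Srf (-0.12, 0.111), did not pass the threshold; these 2 were chosen for mention after their values were seen.

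Of 33 tested partners and regulators of Arc, Homer1 and other members, 3 rose (9.1%, beside 9.65% of all genes tested) and 7 fell (21.2%, beside 9.36%), with a median log2 fold change of -0.07. Without GFP 4, 4 fell, beside 6.91% of all genes. Rhebl1, a relative of Rheb (0.46, adjusted p = 0.00208), the actin-binding protein gene Triobp (0.64, 0.00536) and the activin receptor Acvr2a (0.39, 0.0361) rose. Per2, Per3 and Bhlhe41 (above) and Nptx1, a pentraxin related to Nptx2 (-0.58, 0.00249), were lowest in p among those that fell. Nptx1 stood at 55144, 49904, 59794, 74968 and 67540.2 normalized counts in GFP and 38529, 37604, 43926, 42593 and 40585 in Sox11 libraries, without overlap.

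**Figure D5:**
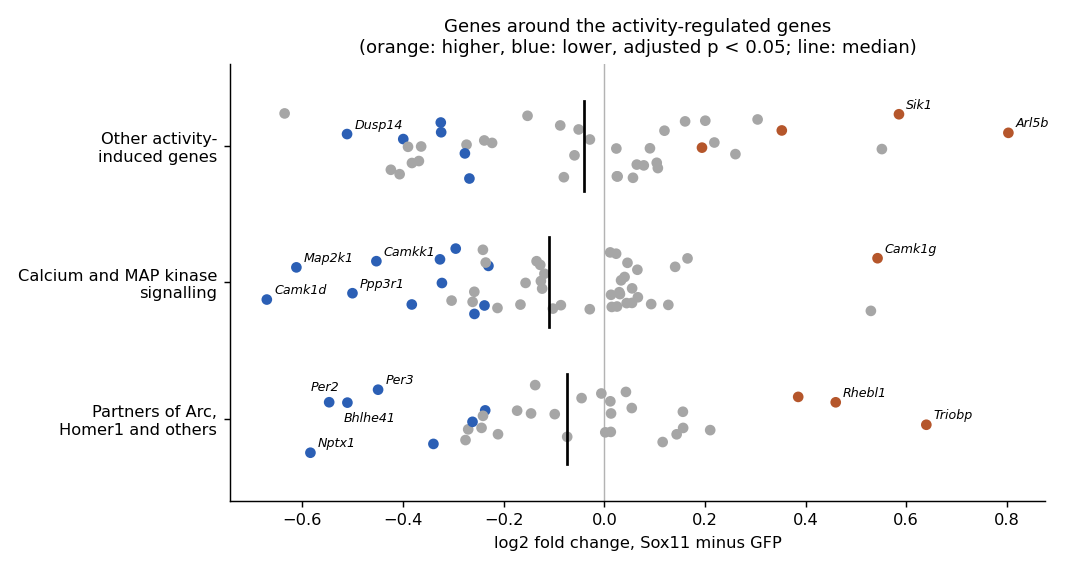
Log2 fold change (Sox11 minus GFP, horizontal axis) of each tested gene of the 3 further lists, 1 point per gene, with arbitrary height within a list and the list's median as a black line. Orange genes rose (4, 1 and 3 from top to bottom) and blue genes fell (6, 11 and 7), and the names are those of the larger changes that passed the threshold.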

How the data were processed

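Poly(A) RNA of the dentate gyrus of 10 mice was sequenced with a stranded kit, per the labels' protocols. Per the submitters' processing notes, the tools included STAR 2.5.2a, featureCounts 1.5.1 and DESeq2 1.12.3, with GRCm38 as the genome build. The authors deposited normalized counts (a signal in which a library's read counts share 1 scaling factor). All values above 0 were whole multiples of 1 read (100% within 0.01 reads), and DESeq2's size factors computed from the recovered reads matched those of the deposited table. The total was 45100154 to 68769808 recovered reads per library. Counting error is therefore small for all members but the lowest, and the number of mice limits precision. The design text names 10 mice for the 10 libraries, so replicates are taken as animals, and no pair of libraries within 1 group agreed within sampling noise.

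The test was limma 3.58.1 (R 4.3.3, trend and robust) on log2(normalized count + 1), for 17007 genes whose mean reached 10 normalized counts, with Benjamini-Hochberg adjustment and a threshold of 0.05. Such log2 changes understate those of low genes. In simulated counts for the Sox11 against GFP comparison (17007 genes), it recovered 18% of 50 genes changed 1.2-fold, 58% at 1.5-fold, 72% at 2-fold and 94% at 4-fold, with 7 unchanged genes called. Only 50 genes were changed at each size there, whereas 3234 genes were called in the data. The adjustment was therefore stricter in the simulation, and these shares can understate recovery in the data. The settings tried besides were a pseudocount of 0.5 or 8, no low-count filter, a filter at 50, TMM, quantile normalization, limma without trend and robust, and, on recovered reads, edgeR 4.0.16 (3272 genes called), limma-voom (3237) and DESeq2 1.42.0 (4038), beside 3234 in the main test. A column-number covariate (4048 called), thresholds of 0.1 and 0.01, other class divisions and leaving out each library were also run, and, added after seeing the data, fits within columns 1 to 3 and 4 to 7.

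Members, gene lists, classes and tests were chosen with earlier results of these data known. All members are named, in full where they passed, where an alternative changed the call or for the main early factors, Arc and Homer1. Of each further list the 4 genes of lowest p in each direction are named. Creb1, Srf, Bdnf, Vgf, Scg2, Jun, Jund and Atf3 were named besides, outside that rule. Gene models came from GENCODE M21 and upstream sequences from RefSeq. Members had at least 98.6% of their 31-base words to themselves. Scripts used Python 3.11.15, pandas 2.3.3 and numpy 2.4.6.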

Additional observations from a re-analysis of the deposited data

Results flagged for a closer look

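In 6 of 70 groups of 5 values examined (the members and Sox11 in each group), the highest or lowest library lay far from the 4 others by Dixon's criterion, where chance gives about 1 in 20. Nr4a2 was low in GFP 5, at 988 normalized counts against 1357 to 1500.2 in the other GFP libraries. Rgs2 was high in GFP 3, at 2267 against 1587 to 1740 normalized counts. Nptx2 was high in Sox11 1, at 1770 against 485 to 797 in the other Sox11 libraries, and the log2 fold change of Nptx2 was -0.21 with it and -0.53 without it. Crem was high in Sox11 7, at 891 against 686 to 729.6, and its call did not rest on that library. Sox11 itself was high in GFP 5, at 1634 against 1364 to 1399 normalized counts, and in Sox11 3, at 20434 against 9803 to 11591. The cause of these values was not tested.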

How the results depend on the processing

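The 10 called members kept their direction in all 23 alternative fits. These fits reuse all or part of the libraries that gave the calls, so a kept direction is not a separate test. Rgs4, Bhlhe40, Klf10 and Crem also kept their call in all 10 fits that left out a library; Ier5 kept it in 9, Homer1 in 7, Ptgs2 in 4, Egr3 in 3 and Egr2 and Ier2 in 2 each. No paired analysis was possible because the columns do not carry the replicate numbers of the labels. Leaving out 1 library gave 1 to 5 members that rose and 4 to 6 that fell, 0 to 4 early members that rose and 1 to 2 that fell, and 2 to 4 late members that fell; the early median ran from 0.08 to 0.20 and the late median from -0.33 to -0.075. In the further lists it gave 2 to 4 (rose) other activity-induced genes, 6 to 14 (fell) signalling genes and 4 to 8 (fell) partners. Fewer libraries were fitted in each, and the cause was otherwise not tested.

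Without a filter and for limma without trend and robust, 1 member rose and 0 early ones. Of all genes fitted, 1359 of 28745 rose without a filter and 1583 of 17007 without trend and robust. At a threshold of 0.1, 7 members rose, 6 of them early, with 10 other activity-induced genes that fell, 2 signalling genes that rose and 6 partners that rose. At a threshold of 0.01, 1 member rose (0 early) and 3 fell (1 early, 2 late), with 1 other activity-induced gene that rose and 2 that fell, 0 signalling genes that rose and 6 that fell, and 3 partners that fell. The share of all genes called at thresholds of 0.1 and 0.01 was not counted, so these counts cannot be set against it. Signalling genes that rose numbered 2 under quantile normalization, 2 with DESeq2 and 3 with the covariate, and partners that rose 6, 6 and 5. In these fits 1638, 2009 and 2067 of all 17007 genes rose. With 6 late genes counted as early, 5 early members fell, 0 late members rose and 1 fell. With the 8 early genes named above left out, Klf10 among them, 1 early member fell. Within columns 1 to 3, 1 member rose (1 early, 0 late) and 1 fell (0 early, 1 late), with 6 signalling genes that fell, 1 partner that rose and 2 that fell; within columns 4 to 7, 1 early member fell and 2 other activity-induced genes rose. The cause was not tested.

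Uncalled members changed sign as follows, in log2 units. Within columns 4 to 7 the values were -0.093 for Fosb, -0.064 for Fosl2, -0.16 for Junb, -0.26 for Egr4, -0.096 for Nr4a3, 0.20 for Inhba and -0.028 for Per1. Within columns 1 to 3 they were -0.037 for Arc, 0.058 for Dusp5, -0.069 for Rgs2 and -0.11 for Tiparp. With the covariate Per1 was at -0.013. Leaving out 1 library gave -0.041 to 0.082 for Fosb, -0.0066 to 0.20 for Junb, -0.23 to 0.076 for Dusp5, -0.15 to 0.042 for Dusp6 and -0.038 to 0.060 for Per1. With 5 mice per group, small differences in widely spread genes such as Arc, Egr1 and Nr4a1 were not detectable.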

Other observations

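Secreted factors that neurons are known to make on stimulation stood as follows, chosen for mention after their values were seen. Bdnf, the neurotrophin, stood at 2664, 2907, 3169.7, 3058 and 3217 normalized counts in GFP and 2621, 2501, 2794, 3286 and 3631 in Sox11 libraries, groups that overlapped fully (log2 fold change -0.03, SE 0.10, adjusted p = 0.893). Vgf, a neuropeptide precursor, had means of 5322 ± 728 against 3999.5 ± 762 normalized counts (± SD, n = 5 each; -0.42, adjusted p = 0.0606). Scg2, the secretogranin of dense-core vesicles, fell from 17978, 15685, 15246, 16837 and 16517 normalized counts in GFP to 13751, 11640.5, 12806, 15184 and 14697 in Sox11 libraries (-0.28, SE 0.076, adjusted p = 0.0253), a call that held in 6 of the 10 fits that left out a library.

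Jun, the partner of Fos in AP-1, fell (10338 ± 1864 against 7756 ± 720.0 normalized counts, mean ± SD, n = 5 each; log2 fold change -0.40, SE 0.12, adjusted p = 0.0379), and the call held in 3 of the 10 fits that left out a library. Jund (4344 ± 728 against 4187 ± 1167; adjusted p = 0.837) and Atf3, a stress-induced partner of Jun (64.2 ± 31.4 against 50.4 ± 12.7; adjusted p = 0.691), did not pass the threshold.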
